A study of Mus musculus with 13 samples.

Results

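The Kcnq1ot1 imprinted domain is a cluster of neighbouring genes on distal mouse chromosome 7, and 9 of its genes were followed here through 13 RNA-seq libraries. The 9 were chosen by name, with earlier results of these data known. They are the long noncoding RNA Kcnq1ot1 and the protein-coding genes Kcnq1, Cdkn1c, Phlda2, Slc22a18, Ascl2, Nap1l4, Tssc4 and Cd81. All 9 were found by gene identifier among the 38377 identifiers of the deposited count table. Kcnq1ot1 ranged from 4.59 to 298 CPM (counts per 1000000 counts of the library). It was low in untreated extraembryonic endoderm lines and high in epiblast stem cells and in extraembryonic endoderm lines given a DNA demethylating drug.

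Genomic imprinting is the expression of a gene from the allele of one parent only. In this domain the promoter of Kcnq1ot1 lies in an intron of Kcnq1, inside a control region that carries DNA methylation on the maternal allele, and the RNA is made from the unmethylated paternal allele, antisense to Kcnq1. On that allele Kcnq1ot1 silences its neighbours in cis, so that Cdkn1c, Phlda2, Slc22a18, Kcnq1 and Ascl2 are expressed mainly from the maternal allele, some of them only in the placenta or other extraembryonic tissues. The counts analysed here do not separate the parental alleles, and DNA methylation was not measured.

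The study sequenced RNA of female mouse cells after loss of Xist, the noncoding RNA that silences an X chromosome, and after a DNA methylation inhibitor. XEN cells are stem cells of the extraembryonic endoderm, and EpiSC are stem cells of the postimplantation epiblast, and the labels give both as established lines in culture. The XEN groups were WT (2 libraries), △Xist with a deletion on the paternal chromosome (3, here dXist), WT treated with 5-aza-2'-deoxycytidine (2, here WT Aza) and the deleted line with the same drug (2, here dXist Aza). The drug, given at 20 µM, is a nucleoside analogue that traps DNA methyltransferases, and the labels state neither its duration nor a vehicle. The EpiSC groups were WT (2) and cells heterozygous for an Xist deletion (2, also called dXist), both untreated. XEN medium held serum, and EpiSC grew on matrigel with FGF2 and Activin. The design text speaks of a deletion upstream of Xist, without its extent. Nothing states that replicates were separate clones or cultures, so the p-values cover the spread among these samples alone, which may be technical.

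The promoters of the noncoding RNA and of Phlda2 are shown because, among the members, Kcnq1ot1 had the largest fitted difference with the demethylating drug and Phlda2 the largest with the Xist deletion in XEN cells. Both are 300-base windows from RefSeq on GRCm38.p6, from 250 bases before to 50 bases after the annotated start, written 5′ to 3′ on the minus strand, with each CG dinucleotide, the site of DNA methylation, in capitals. The first spans chr7:143296498-143296797 and the second chr7:143502475-143502774. The second follows the RefSeq start. It lies inside the span of Phlda2 in the GENCODE annotation used for gene positions here (143501545 to 143503150), whose start differs.
Kcnq1ot1: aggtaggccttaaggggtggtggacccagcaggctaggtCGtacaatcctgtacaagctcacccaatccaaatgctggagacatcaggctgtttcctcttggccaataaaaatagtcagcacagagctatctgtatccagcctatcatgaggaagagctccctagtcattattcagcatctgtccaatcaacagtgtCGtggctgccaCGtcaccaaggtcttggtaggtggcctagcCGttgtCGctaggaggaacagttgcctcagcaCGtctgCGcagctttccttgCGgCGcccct
Phlda2: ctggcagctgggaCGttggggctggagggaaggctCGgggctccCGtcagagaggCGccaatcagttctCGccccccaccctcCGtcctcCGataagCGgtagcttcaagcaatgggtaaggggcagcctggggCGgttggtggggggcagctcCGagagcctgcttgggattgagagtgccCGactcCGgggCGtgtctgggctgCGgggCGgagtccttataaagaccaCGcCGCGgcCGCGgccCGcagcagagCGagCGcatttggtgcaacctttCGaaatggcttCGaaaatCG
The Kcnq1ot1 window holds 9 CG dinucleotides at 53.3% GC, and 45.8% of the 32851 promoters in the same table hold at least as many. The Phlda2 window holds 26 at 65.7% GC, a number reached by 16.9% of promoters. The motif CCAAT, counted on both strands as CCAAT or ATTGG and known as the binding motif of NF-Y, occurs 3 times in the Kcnq1ot1 window, as it does or more often in 3.4% of promoters, and 1 time in the Phlda2 window, as in 37.4%. Among the other members in the table, Ascl2, Cd81 and Tssc4 have 23 CG dinucleotides each, reached by 21.5% of promoters, and Slc22a18 has 2, reached by 85.9%. Of these, Ascl2 also holds the CCAAT motif 3 times, Tssc4 holds it 1 time, and Cd81 and Slc22a18 hold it 0 times. Kcnq1, Cdkn1c and Nap1l4 were not matched to a promoter. These matches describe the letters of the windows alone.

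Library totals ran from 5848454 to 35247432 counts, and a count of 3 in a library corresponds to 0.0851 to 0.513 CPM by its total, which covers counting error only. Xist, the deleted gene, had 1550 and 1587 CPM in WT XEN, 1626 and 1214 in WT Aza, 815 and 206 in WT EpiSC, 2.28, 1.16 and 4.79 in dXist XEN, and 0.435 and 0.276 in dXist EpiSC. In dXist Aza it had 14.6 and 242 CPM, so the second of these libraries stands apart from the other deleted libraries, and member differences in dXist Aza are also given without it. The untreated dXist libraries and the first dXist Aza library hold Xist reads too, at far lower levels. These 2 libraries differed from each other more than any other replicates, by a median of 1.74-fold over 14262 genes against 1.11-fold to 1.43-fold. The WT Aza libraries were the closest, and their counts still differed by more than sampling noise (chi-square per degree of freedom 3.89, against at least 75.5 for every other pair), so they were kept as 2 samples. Summed markers of extraembryonic endoderm (12 genes) lay at 32406 to 94864 CPM in XEN and 963 to 1460 in EpiSC, and those of epiblast (10 genes) at 45.9 to 216 and 956 to 1385. Hnf4a, an endoderm factor, was at 0 in every EpiSC library.

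The library type bears directly on Kcnq1ot1, a long unspliced RNA that poly(A) selection may capture poorly. RNAs that poly(A) selection depletes (mt-Rnr1, mt-Rnr2 and Rn7sk) took 10.4% to 13.5% of the counts in 4 libraries, called total-like here, and 0.0152% to 0.279% in the other 9, called polyA-like. The 4 total-like libraries were both WT Aza libraries, the second WT EpiSC library and the second dXist EpiSC library. In XEN cells the drug and the library type therefore cannot be told apart in WT, while dXist and dXist Aza are all polyA-like. The kits named in the labels (NEBNext Ultra and TruSeq stranded) are not assigned to libraries, and the sources used here do not say whether counting used strand.

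Kcnq1ot1 (ENSMUSG00000101609) is annotated on the minus strand of chromosome 7 from 143203458 to 143296549 on GRCm38 as a single block of 93092 bases, an antisense transcript inside the introns of Kcnq1. It shares 121 bases, 0.13% of its length, with Kcnq1 exons on the other strand, and without strand its reads cannot be told apart from those of unspliced Kcnq1 RNA. Exonic counts of Kcnq1 itself reached at most 7 in any library.

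In untreated XEN cells Kcnq1ot1 had 4.59 and 9.66 CPM in WT and 5.26, 7.36 and 9.16 CPM in dXist. The 2 groups overlap, and the fitted difference was 0.02 on the log2 scale (SE 0.62, edgeR adjusted p = 0.998), with a 95% interval from -1.2 to 1.24. Without the first or the second WT library it was -0.44 or 0.7, so its sign was not fixed.

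The drug-treated XEN libraries all lay above these values. Kcnq1ot1 had 165 and 91.0 CPM in WT Aza, against a WT mean of 7.13 ± 3.59 (SD, n = 2), and 227 and 46.3 CPM in dXist Aza, against a dXist mean of 7.26 ± 1.95 (SD, n = 3). No treated library reached down to any untreated XEN library. In dXist Aza, where all libraries were polyA-like, the 2 libraries were 31.3 and 6.38 times the untreated mean. The share of counts in mt-Rnr1, mt-Rnr2 and Rn7sk was 0.279% and 0.142% in these libraries, against 0.0172% to 0.0284% in untreated dXist, so this measure was higher too, and highest in the library with more Kcnq1ot1. Its part in the difference was not tested. The fitted log2 difference there was 4.05 (SE 0.65, unadjusted p = 0.000107), and its edgeR adjusted p of 0.0584 missed the threshold of 0.05. DESeq2 gave 4.2 with an adjusted p of 1.66e-07, and a fit over all 13 libraries with a library type term gave 4.23 (SE 0.61, adjusted p = 0.0126). Over the 11 fits tried, the difference ranged from 2.54 to 4.73 and passed in 5. Without the second dXist Aza library, the one with 242 CPM of Xist, it was 4.73 (adjusted p = 0.00223), and without the first 2.54 (adjusted p = 0.146). Leaving out the third dXist library also brought it past the threshold (adjusted p = 0.0457).

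In WT the mean of 128 ± 52.6 CPM with the drug was 18.0 times the untreated mean. Kcnq1ot1 rose by 4.25 on the log2 scale (SE 0.77, edgeR adjusted p = 0.0488). This call depended on each of the 4 libraries, with adjusted p between 0.0935 and 0.277 when any was left out, and it was lost with RLE size factors (adjusted p = 0.0524) and with the replicate block (0.0797), passing in 3 of 10 fits. With the library type as a term over all 13 libraries the difference was 2.25 (SE 0.9, adjusted p = 1.0). The interaction of drug and genotype was -0.2 (SE 0.92, interval -1.99 to 1.6, adjusted p = 0.969), and in it library type cannot be told apart from the WT drug effect. It turned to 1.98 with the library type term and to 0.5 without the second dXist Aza library, and ran from -1.61 to 1.98 over the fits, none past the threshold.

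**Figure D1:**
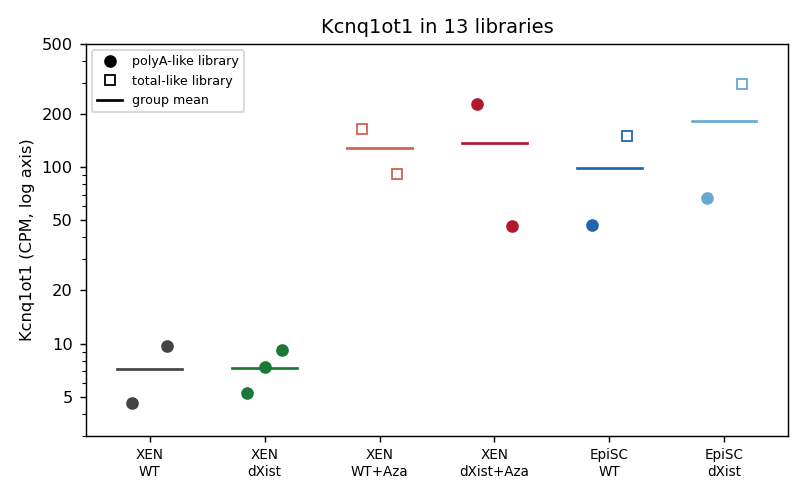
Kcnq1ot1 in CPM (log axis) in each of the 13 libraries by group, with filled circles for polyA-like and open squares for total-like libraries and a line at each group mean. The 5 untreated XEN libraries lie between 4.59 and 9.66 CPM and the other 8 between 46.3 and 298 CPM.

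EpiSC expressed the RNA without any drug. WT EpiSC had 47.1 and 150 CPM and dXist EpiSC 66.7 and 298 CPM, the higher value of each group being the total-like library. WT EpiSC exceeded WT XEN by 3.79 on the log2 scale (SE 0.81, edgeR adjusted p = 0.00819), 13.8-fold by the means of 98.4 ± 72.5 and 7.13 ± 3.59 CPM (SD, n = 2 each). Among the untreated polyA-like libraries alone the difference was 2.74 (SE 0.58, adjusted p = 0.0257), with 1 WT EpiSC library in that fit. It passed in 10 of 11 fits, the exception being the fit without the first WT XEN library (3.35, adjusted p = 0.0703). In this comparison 6085 of 19733 genes passed (30.8%), and 2 of the 8 members tested, Kcnq1ot1 and Phlda2. At an unadjusted p under 0.05, 3 of the 8 and 44.6% of genes passed, and DESeq2 called 2 of the 8 and 37.9% of genes.

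Between the EpiSC genotypes Kcnq1ot1 was 0.9 higher in dXist on the log2 scale (SE 0.88, edgeR adjusted p = 0.767), and the groups overlap. Compared within a library type, dXist exceeded WT by 0.5 in the polyA-like pair and 0.99 in the total-like pair on a log2(CPM + 0.5) scale. Ordered by mean, the 6 groups ran from WT XEN and dXist XEN, which overlap, to WT EpiSC, WT Aza XEN, dXist Aza XEN (137 ± 128 CPM) and dXist EpiSC (182 ± 163 CPM), and the last 4 overlap each with its neighbours.

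The EpiSC libraries give the size of the library type difference with cell type held fixed. Kcnq1ot1 in the total-like library was 3.18 times the polyA-like library in WT and 4.47 times in dXist. Fitted over the 4 libraries with genotype as a term, the total-like libraries were higher by 1.92 on the log2 scale (SE 0.32, edgeR adjusted p = 1.08e-07), a fit with 1 residual degree of freedom. Of the 8 members tested, 2 passed in this comparison, against 13.8% of all 17132 genes (25.3% unadjusted, and 7.58% with DESeq2, which called 1 of the 8). The other was Tssc4, which encodes a factor for assembly of the spliceosomal U5 particle in human cells, at 1.01 (SE 0.32, adjusted p = 0.0134 with edgeR and 0.0711 with DESeq2). Tssc4 had 12.8 CPM in the polyA-like and 37.4 CPM in the total-like WT library, and 20.8 and 28.7 CPM in dXist.

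**Figure D2:**
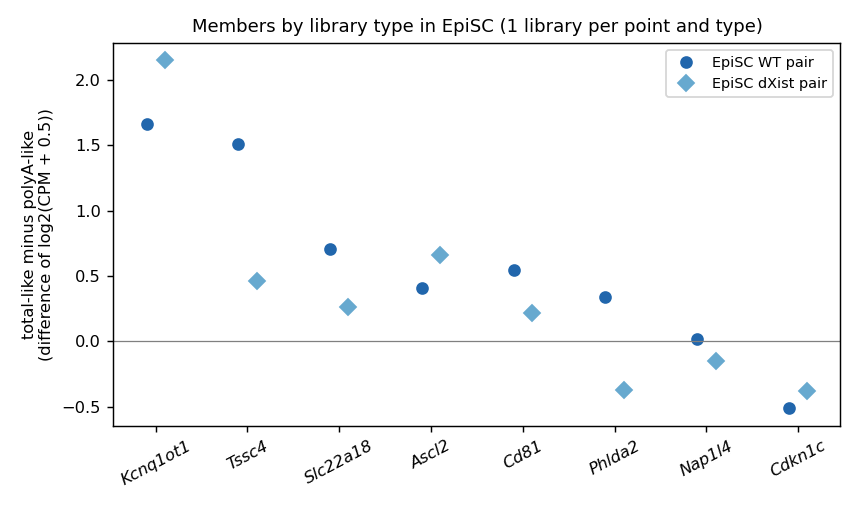
Difference between the total-like and the polyA-like EpiSC library (log2(CPM + 0.5)) for 8 members, with circles for the WT pair and diamonds for the dXist pair, 1 library of each type per point. Kcnq1ot1 is highest in both pairs, at 1.66 and 2.15.

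Phlda2 encodes a small pleckstrin homology domain protein known for restraining placental growth, and lies on chromosome 7 from 143501545 to 143503150 on the minus strand. It had 21.8 and 29.9 CPM in WT XEN and 1.03, 2.84 and 2.0 CPM in dXist XEN. The groups do not overlap, and the dXist mean of 1.96 ± 0.91 CPM (SD, n = 3) was 13.2-fold lower than the WT mean of 25.9 ± 5.73 CPM (SD, n = 2). The fitted difference was -3.73 on the log2 scale (SE 0.71, interval -5.12 to -2.33, unadjusted p = 0.000432). With edgeR the adjusted p was 0.18, and with DESeq2 9.2e-05. Over the 11 fits tried the difference lay between -4.09 and -3.41, and passed in 2 of them, DESeq2 and edgeR without a filter on low counts (adjusted p = 1.72e-06). In bulk RNA, fewer cells that express a gene and less RNA per cell cannot be told apart.

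Cdkn1c, which lies nearer to Kcnq1ot1, encodes a cyclin-dependent kinase inhibitor of the CIP/KIP family and lies from 143458339 to 143461050 on the minus strand. In XEN cells it had 4.82 and 1.15 CPM in WT and 0, 0.0374 and 0.848 CPM in dXist, that is 144 and 36 counts against 0, 1 and 25. Both WT libraries lie above all dXist libraries, with means of 2.99 ± 2.6 and 0.295 ± 0.479 CPM. The fitted difference of -3.28 (SE 1.52) did not pass (edgeR adjusted p = 0.48), and it ran from -7.03 to -1.94 over the fits. The antisense gene Gm44732, which covers 30.65% of the exonic bases of Cdkn1c, had 0 counts in every XEN library. The related inhibitors Cdkn1a and Cdkn1b passed with neither edgeR nor DESeq2 in any XEN comparison.

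Slc22a18, an organic cation transporter-like gene between these genes, from 143473736 to 143499334 on the plus strand, had 1.17 and 1.05 CPM in WT XEN and 0.257, 0.187 and 0.272 CPM in dXist XEN. Its groups do not overlap either, a 4.67-fold lower mean in dXist that did not pass (-2.2 on the log2 scale, SE 0.77, edgeR adjusted p = 0.399).

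These 3 neighbours on the Cdkn1c side were the only members of the 8 tested whose dXist XEN libraries all lay below WT, against 14.8% of 18393 genes, and no member lay wholly above, against 13.6%. With edgeR, 0 of the 8 passed and 4 of 18393 genes did (0.0217%). At an unadjusted p under 0.05, 2 of the 8 and 10.7% of all genes passed. DESeq2 called 1 of the 8 and 2.75% of all genes. The median member difference was -0.23 and that of all genes 0.0. Summed trophoblast markers (10 of 12 genes in the table, mostly Krt8) were 563 to 834 CPM in WT and 526 to 801 in dXist. Cdx2 (means of 0.558 CPM in dXist and 0.132 in WT) and Gata3 (4.66 and 1.77) lay wholly higher in dXist and Elf5 (0.0684 and 0.263) wholly lower, and Hand1 and Tfap2c were at 0 in both groups. Of the 9 fibroblast markers, Pdgfrb made up most of the sum in WT (16.5 to 18.1 CPM, against 2.24 to 3.63 in dXist), at 16.0 to 16.8 CPM against 1.08 to 2.34 in dXist, while Dcn, Col3a1 and Col1a2 had higher means in dXist and stayed under 1 CPM in both groups. Of the 12 endoderm markers, 6 fitted differences were positive and 6 negative (median -0.17). Sox7 was the 1 endoderm marker whose groups did not overlap, at 488 to 686 CPM in WT and 191 to 209 in dXist (-1.56, SE 0.32, edgeR adjusted p = 0.2). The part of these markers in the member differences was not tested.

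**Figure D3:**
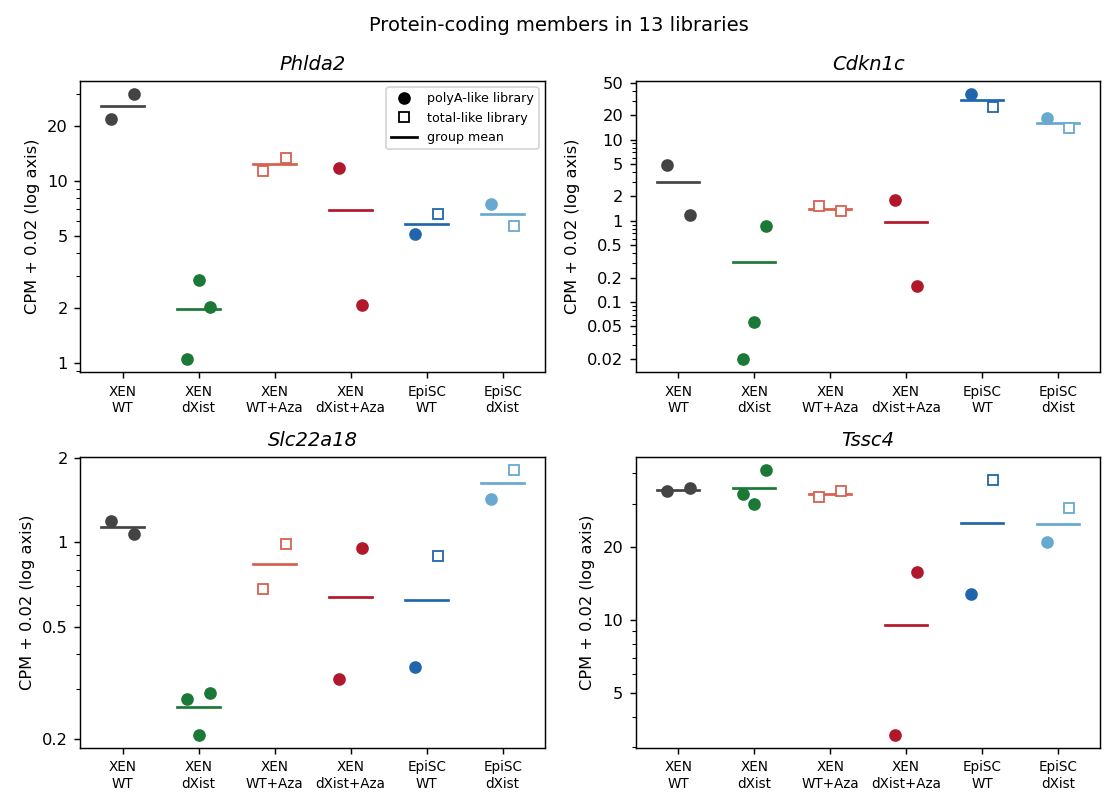
Phlda2, Cdkn1c, Slc22a18 and Tssc4 in CPM plus 0.02 (log axes) in each library by group, with symbols as for Kcnq1ot1 and a line at each group mean. In XEN the dXist libraries lie below WT for the first 3 genes, and Tssc4 is lowest in the dXist Aza libraries, at 3.37 and 15.7 CPM.

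The same contrast was made in EpiSC. Phlda2 had 5.05 and 6.53 CPM in WT EpiSC and 7.42 and 5.61 CPM in dXist EpiSC, which overlap (0.2 on the log2 scale, SE 0.34, edgeR adjusted p = 0.885). The difference between the cell types in the effect of the deletion was 3.93 for Phlda2 (SE 0.72, interval 2.51 to 5.34, unadjusted p = 0.000349), with an adjusted p of 0.144 in edgeR and 3.87e-05 in DESeq2. It ranged from 3.61 to 4.34 over the fits. For Slc22a18 this difference was 3.64 (SE 1.04, adjusted p = 0.324) and for Cdkn1c 2.43 (SE 1.69, adjusted p = 0.626). With edgeR, 0 of 8 members passed this test of the difference, as did 2 of 19733 genes (0.0101%). At an unadjusted p under 0.05, 2 of the 8 and 10.3% of genes passed, and DESeq2 called 1 of the 8 and 2.27% of genes.

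Within EpiSC, Cdkn1c had 36.2 and 25.3 CPM in WT and 18.4 and 14.0 CPM in dXist. All dXist values lie below WT, with means of 16.2 ± 3.11 and 30.8 ± 7.7 CPM (SD, n = 2 each). The fitted difference was -0.9 (SE 0.31, edgeR adjusted p = 0.438). It was -0.96 in the polyA-like and -0.83 in the total-like pair. Slc22a18 pointed the other way, with 0.339 and 0.871 CPM in WT and 1.41 and 1.79 CPM in dXist, a log2 difference of 1.44 (SE 0.68, adjusted p = 0.561) and of 1.19 and 0.74 within the pairs. When the library type was a term in the EpiSC fit, which here is the same as the replicate number, both passed: Cdkn1c fell by 0.89 on the log2 scale (adjusted p = 0.0422) and Slc22a18 rose by 1.55 (adjusted p = 0.022). That fit called 11.4% of all genes and has 1 residual degree of freedom.

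Without that term edgeR called 0 of the 8 members and 0 of 17132 genes (0.0%) between the EpiSC genotypes. At an unadjusted p under 0.05, 1 member and 10.2% of genes passed, and DESeq2 called 0 members and 2.87% of genes. Groups did not overlap for 2 members higher in dXist, Slc22a18 and Ascl2 (20.5% of genes), and for 2 lower, Cdkn1c and Nap1l4 (22.3%). Summed fibroblast markers were 677 to 795 CPM in WT EpiSC and 166 to 228 in dXist EpiSC, with Col1a1 at 216 to 375 and 104 to 163 CPM, and their part in these differences was not tested.

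Across the cell types, Phlda2 was lower in WT EpiSC than in WT XEN by 4.47-fold, and fell by 2.16 on the log2 scale (SE 0.54, edgeR adjusted p = 0.016). It passed in 6 of 11 fits and was lost without the second WT XEN library (adjusted p = 0.084), without either WT EpiSC library (0.109 and 0.0568), with the library type over all 13 libraries (0.0991) and among polyA-like libraries alone (0.0965). Cdkn1c was 10.3-fold higher in WT EpiSC by the means, 3.36 on the log2 scale (SE 1.32), and did not pass with edgeR (adjusted p = 0.0825) or DESeq2 (0.102). Ascl2 left aside for its few counts in XEN, groups did not overlap for 3 members higher in EpiSC (Kcnq1ot1, Cdkn1c and Nap1l4, against 36.3% of genes) and 2 lower (Phlda2 and Slc22a18, against 30.0%). Summed fibroblast markers were 677 to 795 CPM in WT EpiSC and 16.5 to 18.1 in WT XEN. Their part in these differences was not tested.

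With the drug, no gene on the Cdkn1c side passed in edgeR. Phlda2 had 11.3 and 13.3 CPM in WT Aza, below both untreated WT libraries, and 11.7 and 2.05 CPM in dXist Aza, the first above and the second within the range of untreated dXist. The fitted differences were -0.99 in WT (SE 0.76, edgeR adjusted p = 0.638) and 1.62 in dXist (SE 0.69, adjusted p = 0.168). Without the first dXist Aza library the second was -0.07, and without the other, which is highest in Xist among the deleted libraries, it was 2.35 (adjusted p = 0.0167). The interaction for Phlda2 was 2.61 (SE 1.03, edgeR unadjusted p = 0.0299, adjusted p = 0.603), and 3.36 without that library. It ran from 1.01 to 3.36 over the fits, and in it library type cannot be told apart from the WT drug effect.

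Cdkn1c had 1.49 and 1.29 CPM in WT Aza and 1.78 and 0.139 CPM in dXist Aza, and neither group was separate from its untreated counterpart. The fitted differences were -1.01 in WT (SE 1.67, adjusted p = 0.856) and 1.45 in dXist (SE 1.52, adjusted p = 0.559), the latter 2.32 without the second dXist Aza library and -1.21 without the first. Slc22a18 had 0.664 and 0.968 CPM in WT Aza and 0.306 and 0.937 CPM in dXist Aza. Both dXist Aza values lay above the untreated dXist range of 0.187 to 0.272 CPM, the first of them only just. Its fitted differences of -0.35 in WT (SE 0.87) and 1.26 in dXist (SE 0.78) did not pass (edgeR adjusted p = 0.911 and 0.318). The difference in dXist was 0.13 without the second dXist Aza library. The fitted differences of Phlda2, Cdkn1c and Slc22a18 were thus negative in WT and positive in dXist, none past the threshold. Among the 12 endoderm markers, 11 fitted differences with the drug were negative in WT (median -0.53, against -0.04 for all genes). In dXist 10 of the 12 were negative (median -0.61, against -0.02), and edgeR called 0 in either genotype. The part of these markers in the member differences was not tested.

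On the other side of Kcnq1ot1, Tssc4 (143069249 to 143071093, plus strand) had 32.9, 29.9 and 41.3 CPM in dXist and 3.37 and 15.7 CPM in dXist Aza. Both treated libraries lie below all untreated ones, with means of 9.53 ± 8.71 and 34.7 ± 5.92 CPM. The log2 difference of -1.98 (SE 0.58) missed the threshold in edgeR (adjusted p = 0.0916) and passed in DESeq2 (0.00737). Without the second dXist Aza library it was -3.59 (adjusted p = 0.00224), and without the first -1.28 (adjusted p = 0.194). In WT Aza, Tssc4 had 31.9 and 33.8 CPM, overlapping WT at 33.7 and 34.7 CPM (0.02, SE 0.59, adjusted p = 0.996). The interaction was -2.01 (SE 0.82, edgeR unadjusted p = 0.0351, adjusted p = 0.609), and -3.6 without the second dXist Aza library. Over the fits it ran from -3.6 to -0.79. Tssc4 was also higher in the total-like EpiSC libraries, and the WT Aza libraries are total-like. Library type therefore cannot be told apart from the drug in its WT values or in the interaction. With library type as a term over all 13 libraries its WT difference was -1.06. Tssc4 shares 220 exonic bases (11.92%) with Trpm5 on the other strand, which had at most 24 counts in any library.

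Cd81, which encodes a tetraspanin of the cell surface, lies from 143052739 to 143067934 on the plus strand. It had 214 and 184 CPM in WT XEN and 393 and 443 CPM in WT Aza, groups that do not overlap (1.16, SE 0.46, edgeR adjusted p = 0.351). In dXist XEN it had 309, 273 and 175 CPM and in dXist Aza 161 and 374 CPM, which overlap (-0.04, SE 0.41), with -0.87 (adjusted p = 0.124) without the second dXist Aza library and 0.44 without the first. In EpiSC it had 140 and 205 CPM in WT and 137 and 160 CPM in dXist.

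Nap1l4, a histone chaperone of the nucleosome assembly protein family at the far end of the Cdkn1c side (143513579 to 143549106, minus strand), had the smallest ratio of highest to lowest value among the members, running from 79.4 to 138 CPM over the 13 libraries. It had 133 and 134 CPM in WT EpiSC and 105 and 94.2 CPM in dXist EpiSC (-0.4, SE 0.25, edgeR adjusted p = 0.651), and edgeR called it in none of the 8 comparisons.

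Kcnq1, the voltage-gated potassium channel gene in which Kcnq1ot1 starts (143106362 to 143427042, plus strand), had 0 to 7 counts per library and did not pass the filter on low counts. Ascl2, a basic helix-loop-helix factor required for the placental spongiotrophoblast (142966829 to 142969264, minus strand), had 2 counts in all over the WT XEN libraries and 2 over the dXist XEN libraries, at or under the 3-count floor, so that no fold against these groups is given. It had 2 and 6 counts in WT Aza, 0 and 3 in dXist Aza, 6 and 8 in WT EpiSC and 18 and 23 in dXist EpiSC. The EpiSC values, 0.169 and 0.387 against 0.489 and 1.06 CPM, do not overlap (1.5 on the log2 scale, SE 0.84, edgeR adjusted p = 0.621).

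With the drug, edgeR called 1 of the 8 members in WT (Kcnq1ot1) and 107 of 18393 genes (0.582%), where 2 of the 8 and 12.4% of genes had an unadjusted p under 0.05, and DESeq2 called 1 of the 8 and 3.51% of genes. Ascl2 left aside for its 2 counts in WT, in WT Aza 2 members lay wholly above WT (Kcnq1ot1 and Cd81, against 28.1% of genes) and 3 wholly below (Phlda2, Slc22a18 and Nap1l4, against 31.7%). In dXist it called 0 of 8 and 14 genes (0.0761%). At an unadjusted p under 0.05, 3 of the 8 and 26.8% of genes passed, and DESeq2 called 2 of the 8 (Kcnq1ot1 and Tssc4) and 15.8% of genes. Without the second dXist Aza library edgeR called 3 of the 7 members then tested (Kcnq1ot1, Phlda2 and Tssc4) and 23.9% of genes. In dXist Aza 2 members lay wholly above dXist (Kcnq1ot1 and Slc22a18, against 23.9%) and 1 wholly below (Tssc4, against 18.4%). The interaction of drug and genotype was called for 0 of 8 members and 45 genes (0.245%), with 2 of the 8 and 8.0% of genes at an unadjusted p under 0.05, and 0 of the 8 and 1.19% of genes by DESeq2. The 2 treatment comparisons have no library in common.

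**Figure D4:**
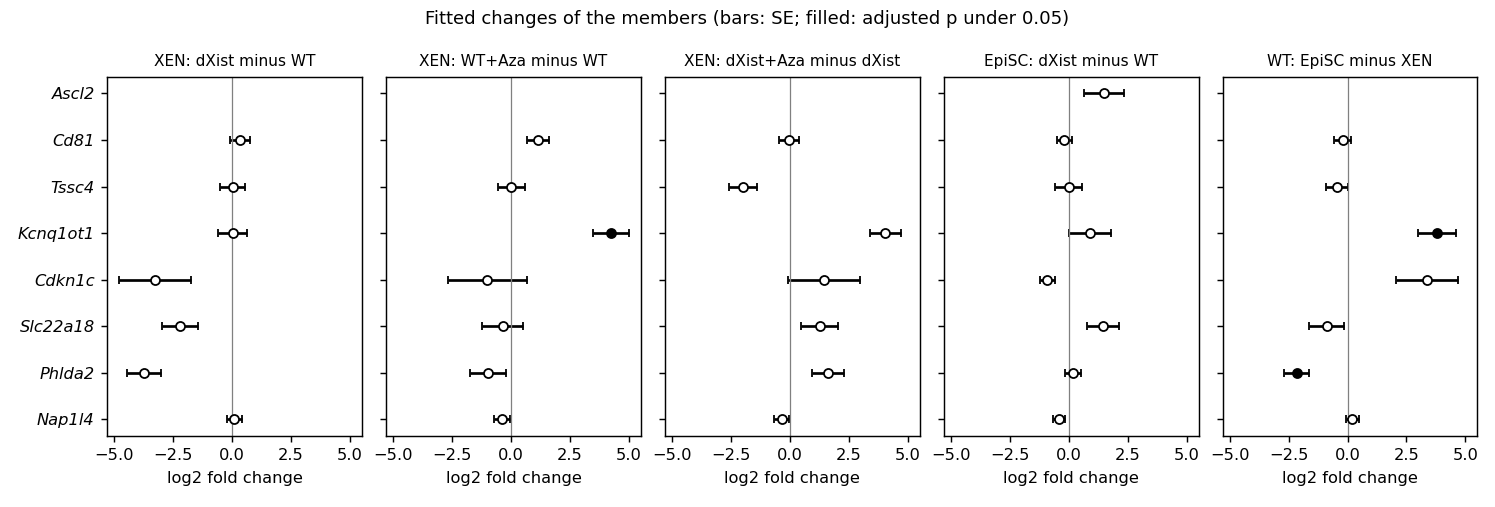
Fitted log2 fold changes of the members (points) with their SE (bars) in 5 comparisons, filled where the edgeR adjusted p was under 0.05 and ordered along the chromosome from Ascl2 to Nap1l4. Ascl2 is drawn only in EpiSC, where each group had more than 3 counts, and the filled points are Kcnq1ot1 in WT Aza and Kcnq1ot1 and Phlda2 in WT EpiSC against WT XEN.

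Neighbouring genes, called flanking genes here, were set beside these values. Among them Tspan32 and Trpm5 lie between members and H19 is itself imprinted, so the list is not a neutral background. Of 13 such genes 12 were in the table and 9 were tested in XEN, and edgeR called 0 of them with the deletion or with the drug in either genotype. Those with an unadjusted p under 0.05 were 0 with the deletion, 2 with the drug in WT and 5 in dXist, and DESeq2 called only Cars, with the drug in dXist. The shares of all genes were 10.7%, 12.4% and 26.8% unadjusted, and 2.75%, 3.51% and 15.8% with DESeq2. Without the second dXist Aza library, with a lone treated library left, 4 of the 10 fitted differences then tested were positive (median -1.59). Without the first instead, 5 of the 9 then tested were positive (median 0.3), so the sign of the median depended on the library. H19, the maternally expressed noncoding RNA of the adjacent imprinted cluster, had 7.57 and 12.1 CPM in WT XEN and 156 in each WT Aza library, against 0.0641, 0.0748 and 13.9 CPM in dXist and 73.8 and 61.2 CPM in dXist Aza. All treated libraries lie above the untreated ones, with log2 differences of 4.06 (SE 1.8, adjusted p = 0.4) and 3.67 (SE 1.51, adjusted p = 0.161), the latter 3.72 (adjusted p = 0.171) without the second dXist Aza library. In EpiSC H19 had 431 and 335 CPM in WT and 32.6 and 36.7 CPM in dXist (-3.44, SE 0.32, edgeR adjusted p = 0.102). Between the EpiSC genotypes edgeR called 0 of the 8 flanking genes tested, and 5 had an unadjusted p under 0.05, against 10.2% of genes. DESeq2 called 2, H19 and Igf2, against 2.87% of genes. Igf2 had 1.6 to 17.1 CPM in WT EpiSC and 0.184 to 0.788 in dXist EpiSC. The part of the fibroblast markers in these H19 and Igf2 levels was not tested. Of the 10 flanking genes tested between WT EpiSC and WT XEN, 4 were called higher (Igf2, Tnfrsf23, Tnfrsf22 and Osbpl5) and Cars lower. The shares of all genes called by edgeR there were 16.8% higher and 14.1% lower.

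**Figure D5:**
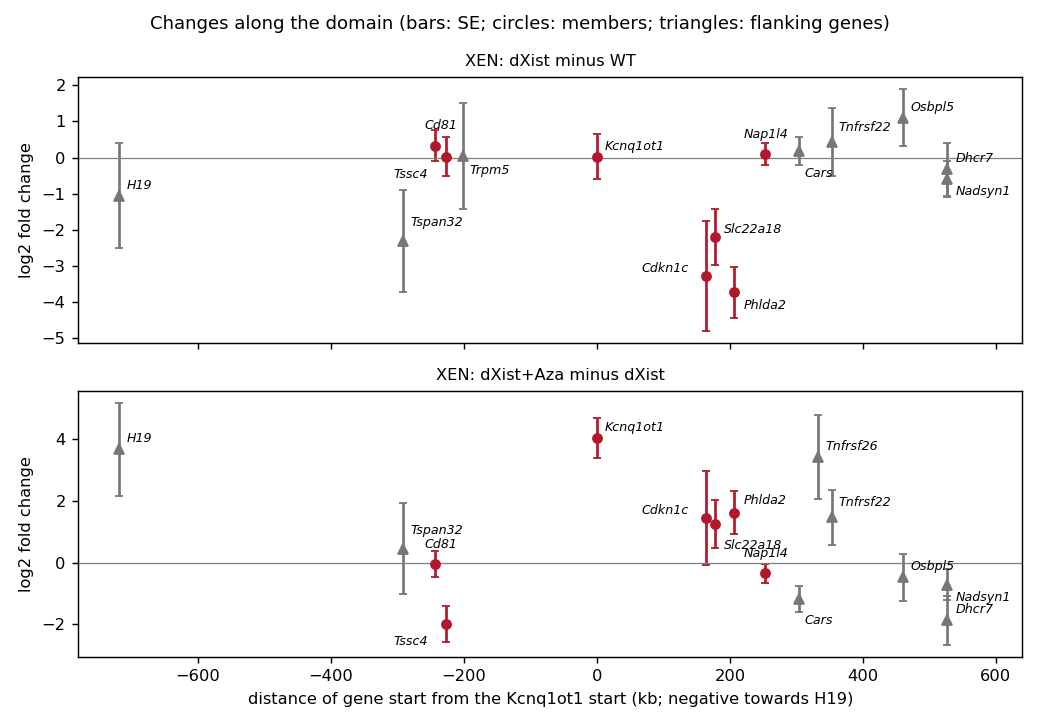
Fitted log2 fold changes with SE (bars) against the distance of each gene's start from the Kcnq1ot1 start in kb, for members (circles) and flanking genes (triangles), with the Xist deletion in XEN above and the drug in dXist XEN below; genes with 3 or fewer counts in a compared group are left out. Above, Cdkn1c, Slc22a18 and Phlda2, 164.5 to 206.6 kb from the Kcnq1ot1 start, lie at -3.28, -2.2 and -3.73, and below, Kcnq1ot1 lies at 4.05.

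Among 10 long noncoding RNAs that include Kcnq1ot1, Airn, the cis-silencing antisense RNA of the Igf2r cluster, is the nearest in kind. It had 7.7 and 9.22 CPM in WT XEN, 34.2 and 30.0 in WT Aza, 8.79, 7.92 and 8.82 in dXist, and 36.2 and 27.6 in dXist Aza. The treated and untreated libraries do not overlap in either genotype, with log2 differences of 2.01 (SE 0.38, edgeR adjusted p = 0.0624) and 1.75 (SE 0.33, adjusted p = 0.0614). The latter was 1.86 without the second dXist Aza library and 1.56 without the first. Unlike Kcnq1ot1, Airn was not called between the EpiSC library types (0.37, SE 0.37, adjusted p = 0.582) and was at 4.54 and 5.18 CPM in WT EpiSC. The 2 counts are unlike measures. Kcnq1ot1 was counted over 1 unspliced block of 93092 bases, and Airn over far shorter annotated exons (in WT XEN 8.46 CPM was 2.35 CPM per kb). Rian, of the Dlk1 to Dio3 cluster, went from 0.067 and 0 CPM in WT XEN to 7.97 and 9.46 CPM in WT Aza, and stood at 833 and 1014 CPM in WT EpiSC. With the drug 2 of the 10 were called higher in WT (Kcnq1ot1 and Rian) and 0 in dXist, where 7 of the 10 fitted differences were positive with a median of 1.83, against -0.02 for all genes. In WT 9 of the 10 were positive with a median of 3.1. An unadjusted p under 0.05 was found for 7 of the 10 in WT and 6 in dXist, and DESeq2 called 6 in WT (Airn, Kcnq1ot1, Meg3, Mirg, Nespas and Rian) and 4 in dXist (Airn, Kcnq1ot1, Meg3 and Rian). The shares of all genes were 12.4% and 26.8% unadjusted, and 3.51% and 15.8% with DESeq2. In dXist without the second dXist Aza library, with a lone treated library left, 7 of the 10 fitted differences were positive (median 1.88). Without the first instead, 8 of the 10 were positive (median 1.71). Between the EpiSC library types 5 of the 10 were called higher in the total-like libraries (Kcnq1ot1, Nespas, Mirg, Malat1 and Neat1), against 9.29% of all genes.

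A list of 15 genes that keep or read imprints (among them Dnmt1, the maintenance DNA methyltransferase, Zfp57, which binds methylated imprint control regions, and Ehmt2, a histone methyltransferase) had 0 genes called with edgeR by the deletion or by the drug in XEN. The number with an unadjusted p under 0.05 was 0 with the deletion, 1 with the drug in WT and 3 with the drug in dXist, and DESeq2 called 2 in the last (Smchd1 and Trim28) and 0 in the others. The shares of all genes were 10.7%, 12.4% and 26.8% unadjusted, and 2.75%, 3.51% and 15.8% with DESeq2. In WT Aza 10 of the 15 lay wholly below WT, against 31.7% of all genes, and 1 wholly above, against 28.1%. Both WT Aza libraries are total-like, so drug and library type cannot be told apart there. Between the EpiSC library types 8 of the 15 lay wholly lower in the total-like libraries, against 22.3% of genes. Another 3 lay wholly higher, against 23.2%. There edgeR called 2 of the 15, both lower, against 13.8% of genes in either direction. Leaving out the second dXist Aza library, with a lone treated library left, 7 of the 15 fitted differences in dXist were positive (median -0.08). They ran from -2.6 for Trim28 to 1.77 for Smchd1. Without the first library instead, 4 of the 15 were positive (median -0.21), from -1.39 for Trim28 to 0.5 for Smchd1. Between WT EpiSC and WT XEN 1 of the 15 was called, against 30.8% of all genes. This was Ehmt2, lower in EpiSC (-1.89 on the log2 scale, SE 0.35, edgeR adjusted p = 0.00421).

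Per kilobase of exonic length, Cd81 and Nap1l4 led the members in every group, at 69.0 ± 7.43 and 37.3 ± 3.01 CPM per kb in WT XEN (SD, n = 2). There Phlda2 (23.1 ± 5.11) and Tssc4 (18.5 ± 0.4) followed, then Cdkn1c (1.46 ± 1.27) and Slc22a18 (0.655 ± 0.05), and Kcnq1ot1, long and thinly covered, stood at 0.0765 ± 0.0385. Phlda2 and Tssc4 did not differ beyond their spread. In WT EpiSC Cdkn1c followed them at 15.1 ± 3.78 CPM per kb, within the spread of Tssc4 (13.6 ± 9.42), and Kcnq1ot1 at 1.06 ± 0.78 lay below Phlda2 at 5.17 ± 0.94.

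Over the 13 libraries, the gene most like Kcnq1ot1 among 14253 genes, by Pearson's r of log2(CPM + 0.5), was Gm43201 on chromosome 5 (r = 0.971), followed by Gm45809, 2610037D02Rik and Gm43747 (0.964, 0.941 and 0.938). For Phlda2 they were Arhgap19 and Pcsk6 (0.906 and 0.877). These are descriptions over libraries that share cell type, treatment and library type.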

How the data were processed

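The authors deposited 1 table of read counts per gene, not normalized, for 13 bulk RNA-seq libraries. Per the submitters' processing notes, FastQC, STAR 2.7.9a and featureCounts 2.0.1 were used on GRCm38 (mm10). Not given in the sources used here are the annotation release, the counting strand and the handling of multi-mapped reads. GENCODE vM21 gave symbols and positions, matching 38240 of 38377 identifiers (99.64%).

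Counts were filtered with filterByExpr, scaled by TMM and tested with edgeR 4.0.16 quasi-likelihood fits in R 4.3.3, with Benjamini-Hochberg adjustment over all genes tested and a threshold of 0.05. The 9 XEN libraries, the 4 EpiSC libraries and the 9 untreated libraries were fitted separately. Alternatives were DESeq2 1.42.0, RLE size factors, no filter, a replicate block, each library left out, polyA-like untreated libraries alone, and all 13 libraries with library type. CPM are TMM-scaled. The 95% intervals come from the SE and the normal distribution. Fits were tested on simulated data.

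Library type was read from the counts, as over or under 1% of counts in mt-Rnr1, mt-Rnr2 and Rn7sk. All 9 members are named, and of the listed genes those called, H19, Airn, Rian and examples. Likeness was computed for genes with a mean of at least 1 CPM. The genes most like Cdkn1c are not reported here. The members, lists and named genes were chosen with earlier results of these data known.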

Additional observations from a re-analysis of the deposited data

How the results depend on the processing

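Across 633 alternative fits of 64 member differences, 539 kept their direction and side of the threshold, 26 came to pass, 14 no longer passed and 54 changed sign. What caused these shifts was not tested. Depth limits Cdkn1c, Slc22a18, Kcnq1 and Ascl2 in XEN most, and leaving out an EpiSC library leaves no residual degree of freedom in the library type fit, so that was not run. Leaving out 1 of 2 libraries assumes that the lone one varies like the other groups.

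Counts of genes called moved widely. With the deletion in XEN (4 genes) they were 506 with DESeq2, 684 without a filter, 368 with the replicate block, 31 with library type over all 13 libraries and 1 to 510 with a library left out. With the drug in WT (107) they were 646, 747, 109, 1 and 44 to 61. With the drug in dXist (14) they were 2905, 2750, 131, 1393 and 0 to 4730, and 29 with RLE size factors. For the XEN interaction (45) they were 218, 337, 46, 0 and 28 to 1605. For the EpiSC genotypes (0) they were 492, 676, 1960, 2 and 0 to 174. For the difference between cell types in the effect of the deletion (2) they were 447, 616, 743, 8 and 1 to 670, and 0 among polyA-like libraries. Between the cell types (6085) 3289 were called among polyA-like libraries and 3045 to 4864 with a library left out, and between EpiSC library types (2359) DESeq2 called 1298.

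Counts of members called moved less. With the deletion in XEN (0) DESeq2 called 1 and the fit without a filter 2. With the drug in WT (1) RLE size factors, the replicate block, library type and every fit with a library left out called 0. With the drug in dXist (0) DESeq2 and no filter called 2, library type 1 and fits with a library left out 0 to 3, the 3 (Kcnq1ot1, Phlda2 and Tssc4) without the second dXist Aza library. The XEN interaction (0) gave 0 to 3 with a library left out, the 3 (Phlda2, Tssc4 and Cd81) again without that library. The EpiSC genotypes (0) gave 2 with the replicate block. Between cell types (2) library type and polyA-like libraries gave 1, and fits with a library left out 1 to 2. The cell type difference (0) gave 1 with DESeq2 or no filter, 2 with the replicate block and 0 to 2 with a library left out. DESeq2 called 1 between EpiSC library types (2).

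Log2 differences that changed sign were as follows. With the deletion in XEN the replicate block gave -0.23 for Kcnq1ot1, -0.13 for Tssc4 and 0.0 for Ascl2, and leaving out a library gave -0.44 to 0.7 for Kcnq1ot1, -0.01 to 0.23 for Nap1l4 and -0.15 to 0.11 for Tssc4. With the drug in WT, Tssc4 was -0.09 without a filter, -1.06 with library type and -0.03 to 0.03 with a library left out, and Cdkn1c -1.76 to 0.32. With the drug in dXist, Cd81 was 0.01 with DESeq2 and RLE, 0.09 with library type and -0.87 to 0.44 with a library left out, Cdkn1c -1.21 to 5.19 and Phlda2 -0.07 to 2.35. For the XEN interaction Kcnq1ot1 was 1.98 with library type and -1.61 to 0.5 with a library left out, Cdkn1c -0.12 to 6.18 and Nap1l4 -0.29 to 0.34. For the EpiSC genotypes Tssc4 was 0.0 with DESeq2 and RLE, 0.18 with the replicate block, 0.16 with library type, 0.76 among polyA-like libraries and -0.59 to 0.98 with a library left out. There Cd81 was 0.04 among polyA-like libraries and -0.45 to 0.13 with a library left out, Kcnq1ot1 -0.54 to 1.97 and Phlda2 -0.03 to 0.41. Between cell types, leaving out a library gave -1.4 to 0.17 for Tssc4 and -0.49 to 0.09 for Cd81. For the cell type difference Tssc4 was 0.01 without a filter, 0.2 with the replicate block, 0.14 with library type, 0.73 among polyA-like libraries and -0.62 to 0.95 with a library left out, Kcnq1ot1 -0.55 to 1.95 and Ascl2 -1.12 to 4.61.

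Replicate numbers were checked by correlating the differences between replicates 1 and 2 over 14262 genes. The correlation was between -0.05 and 0.08 in the XEN pairs of groups and with EpiSC, and 0.77 between the EpiSC genotypes, where the number follows the library type, so the numbers were not taken as pairs elsewhere.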

Other observations

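R74862, a processed transcript on the strand opposite Cd81 that shares 104 exonic bases with it, was picked out after its values were seen. It had 3.48 and 3.19 CPM in WT XEN and 1.35, 1.23 and 1.63 CPM in dXist XEN, so the groups do not overlap. It had 1.99 and 3.01 CPM in WT Aza, 2.57 in each dXist Aza library, 2.65 and 3.15 CPM in WT EpiSC, and 2.99 and 3.08 CPM in dXist EpiSC. No test of it is given.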
